A study of Mus musculus with 9 samples.

Results

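The comparison described here sets 3 libraries from cultured mouse cortical astrocytes collected 3 days after noradrenaline against 3 libraries from unstimulated astrocytes. These are 6 of the 9 poly(A)-selected RNA-seq libraries of the study. Cells of the 3 day group had received 50 µM noradrenaline for 90 min and were then kept in medium without it. The controls had no stimulation and are titled with the same 3 day time. No label says whether their medium was also changed, so exposure to noradrenaline and that change cannot be told apart. The other 3 libraries were collected at the end of the 90 min exposure, and they enter the same fit. They share its estimate of the spread, count in the filter on low values and in mean levels, and give the 90 min values quoted beside those at 3 d. All cells were grown in serum on poly-L-lysine and passaged before confluence. The labels leave out strain, age and sex, and do not tell whether replicates were separate cultures. The p-values therefore cover the spread among these libraries only, and that spread may be technical. The question is what remains of a brief exposure days later, over all genes. 13090 of the 22100 rows of the table had enough counts to be tested.

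Noradrenaline is released in the cortex by fibres of the locus coeruleus and acts on astrocytes through alpha and beta adrenoceptors. Beta receptors raise cyclic AMP, which activates protein kinase A and the transcription factor CREB, and alpha-1 receptors raise calcium. CREB binds cyclic AMP response elements (CREs) in the promoters of early genes such as Fos and the Nr4a receptors, whose mRNAs are usually short-lived.

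15 of the 13090 genes were called at 3 d, which is 0.115% of those tested. Called means an adjusted p below 0.05 in edgeR's quasi-likelihood test. 5 were higher, among them the transcription factor genes Fos and Nr4a3 and the complement gene C3. 10 were lower, and their known products belong to the extracellular matrix, the contractile and junctional apparatus, the nuclear lamina, the nucleolus, histone chaperones and translation. In all 15 genes the 3 libraries of the 3 day group lay on 1 side of the 3 controls. These genes were chosen by p in the same libraries, so that separation is no added support. Of all tested genes, 8.03% were separate with higher values at 3 d and 8.11% with lower. Apart from Efcab15, which had no counts in controls, the changes were small: 0.20 to 1.36 on the log2 scale. With Efcab15, 3 of the 15 exceeded 2-fold. The gene lists used below were chosen with earlier results of these data known. A count of called members in a list, beside the share over all genes, is therefore no added support.

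**Figure D1:**
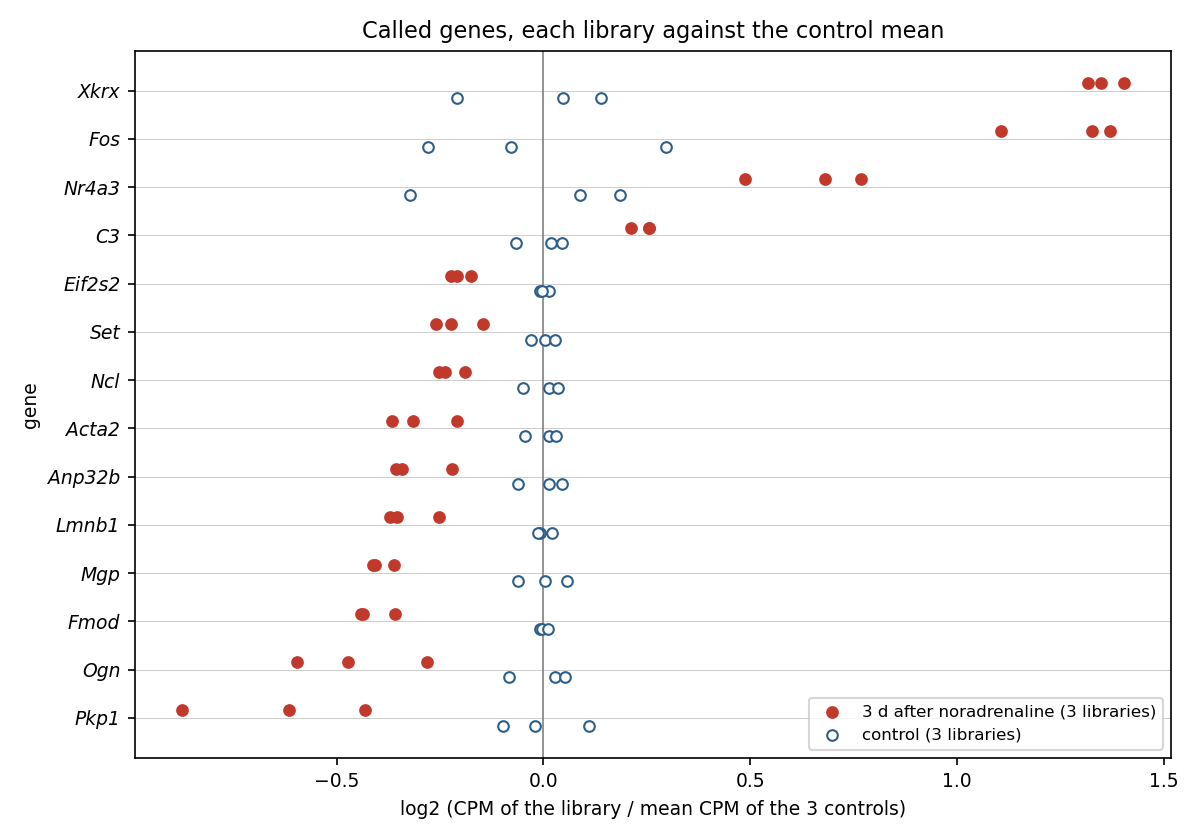
Level of 14 called genes in each library, as log2 of CPM (counts scaled to library size by TMM) over the mean of the 3 controls, with 3 d libraries as filled dots above the open control dots. The groups do not overlap for any of these genes, which were chosen by p in the same libraries. Most 3 d dots lie within 0.5 of 0. Efcab15 is left out because its controls had no counts.

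Depth and the spread between libraries both limit what could be seen. Library totals ranged from 17204691 to 18562461 counts at 3 d and from 15529158 to 18271360 in controls. For genes with a mean log2 CPM of 6 to 8, the median 95% interval of a fold change reached 1.07-fold either side, and for genes below a log2 CPM of 0 it reached 1.88-fold. A change the size of that of Eif2s2, the smallest called (log2 −0.20), exceeded the median interval in each bin above a log2 CPM of 4 and in no bin below. The median log2 fold change over all tested genes was 0.00. An unadjusted p under 0.05 was held by 1221 genes (9.33%), of which 619 were higher and 602 lower, against 654.5 expected by chance. Groups did not overlap for 1051 genes with higher values at 3 d (8.03%) and 1062 with lower values (8.11%).

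The sign of the changes varied with the level of the gene. Of 731 genes with a mean log2 CPM of 8 or more, 26.7% had a log2 fold change above 0, and their median was −0.03. Among 3318 genes between 6 and 8 the share was 42.9%, with a median of −0.01. It was 58.4% in the 1323 genes between 0 and 2, with a median of 0.05. Values slightly below 0 were thus more frequent among abundant genes, on a scale that sets the middle of all genes near 0. Lists of abundant genes, such as those for ribosomal proteins, have to be read beside these values.

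**Figure D2:**
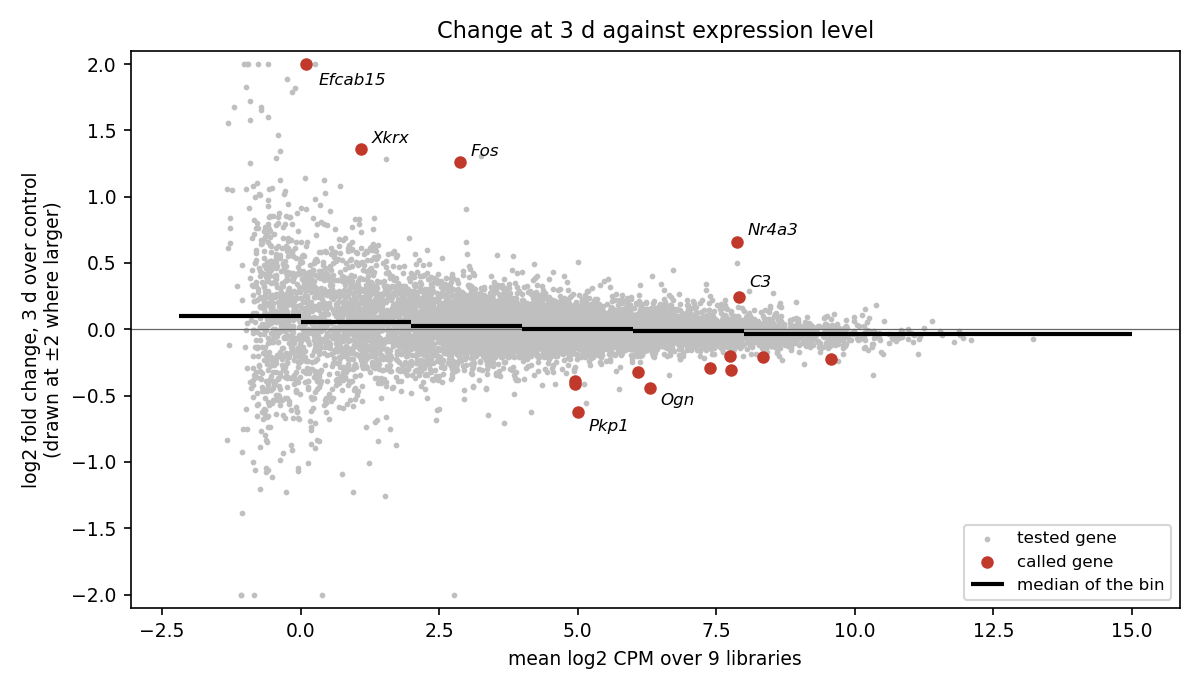
Log2 fold change at 3 d over control (vertical axis) against mean log2 CPM over all 9 libraries (horizontal axis) for the 13090 tested genes, with called genes as large dots and bin medians as black lines. The bin medians pass from 0.10 in the lowest bin to −0.03 in the highest; Nr4a3 lies right of its level at 3 d because its 90 min libraries enter the mean.

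The cultures carried astrocyte genes beside genes of other cell types. Summed over the 16 tested of 17 astrocyte markers, the level was 1748 to 1785 CPM at 3 d and 1719 to 1821 CPM in controls. Gfap, the classical astrocyte filament gene, was low, at 1.37, 1.76 and 1.22 CPM at 3 d and 1.40, 0.823 and 1.17 CPM in controls. Olig1 and Olig2 of the oligodendrocyte lineage, P2ry12, Itgam, C1qa, C1qb and C1qc of microglia, and Cldn5 and Tie1 of endothelium had 0 counts in all 6 libraries. Other members of the lists were present. The sums were 82.1 to 86.0 CPM at 3 d and 80.3 to 85.6 CPM in controls for the oligodendrocyte lineage (4 tested of 11), and 53.5 to 59.7 CPM at 3 d and 50.6 to 56.3 CPM in controls for endothelium (4 tested of 10). Neural progenitor markers summed to 581 to 631 CPM at 3 d and 629 to 701 CPM in controls over 7 tested of 10. Neuronal markers summed to 131 to 145 CPM at 3 d and 138 to 139 CPM in controls over 5 tested of 14. For ependymal and choroid plexus markers, with 2 tested of 8, the sums were 86.1 to 92.5 CPM at 3 d and 79.7 to 87.4 CPM in controls. Markers of fibroblast and meningeal cells were present. Their sum over 10 tested of 15 was 1980 to 2200 CPM at 3 d and 2417 to 2695 CPM in controls, most of it from Col1a1 and Col1a2, while Slc22a6 and Aldh1a2 were at 0. Pericyte and smooth muscle markers summed to 704 to 723 CPM at 3 d and 770 to 781 CPM in controls over 7 tested of 12, with Kcnj8 at 0. Both of these sums were separate between the groups. In bulk RNA, fewer cells of a type and less RNA per cell cannot be told apart.

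Fos codes for a subunit of the AP-1 transcription factor and is among the fastest genes to respond to cyclic AMP and calcium. It stood at 6.63, 7.71 and 7.94 CPM at 3 d, against 3.78, 2.91 and 2.54 CPM in controls. Every 3 d library was thus well above every control, and the raw counts behind the values were 126, 136 and 150 at 3 d and 70, 46 and 41 in controls. The fold was 2.39 (95% interval 1.90 to 3.02, log2 1.26, SE 0.16, edgeR adjusted p = 0.00508), the smallest p of all genes. At 90 min, measured against the same controls, the log2 value was 1.84.

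Nr4a3 codes for an orphan nuclear receptor of the Nr4a family, whose members are classical cyclic AMP targets. Its level was 10.5, 12.03 and 12.8 CPM at 3 d, against 5.99, 7.98 and 8.53 CPM in controls. Control 1 was the lowest and the groups were separate (1.58-fold, interval 1.35 to 1.85, log2 0.66, SE 0.11, edgeR adjusted p = 0.0207). Against the same controls the 90 min libraries averaged 683 ± 8.72 CPM (SD, n = 3). The mean at 3 d was 11.8 ± 1.14 CPM, close to the control mean of 7.50 ± 1.33 CPM on that scale (SD, n = 3 each).

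The promoters of Fos and Nr4a3 are shown because these are the called genes whose regulation by cyclic AMP is best known. Each window runs from 250 bases before to 50 bases after the RefSeq gene start, on build GRCm38.p6. The counts themselves were made with the later build mm39, whose coordinates differ. Capitals mark the CRE core TGACG on either strand, so CGTCA is the same motif on the other strand, and overlaps are merged.
Fos promoter, chr12:85473640-85473939, plus strand: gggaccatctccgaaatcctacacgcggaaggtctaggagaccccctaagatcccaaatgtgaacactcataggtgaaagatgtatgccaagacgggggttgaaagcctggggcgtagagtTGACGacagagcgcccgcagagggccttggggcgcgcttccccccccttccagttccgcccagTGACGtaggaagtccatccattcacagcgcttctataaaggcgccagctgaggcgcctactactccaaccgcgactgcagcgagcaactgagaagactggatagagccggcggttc
Nr4a3 promoter, chr4:48045055-48045354, plus strand: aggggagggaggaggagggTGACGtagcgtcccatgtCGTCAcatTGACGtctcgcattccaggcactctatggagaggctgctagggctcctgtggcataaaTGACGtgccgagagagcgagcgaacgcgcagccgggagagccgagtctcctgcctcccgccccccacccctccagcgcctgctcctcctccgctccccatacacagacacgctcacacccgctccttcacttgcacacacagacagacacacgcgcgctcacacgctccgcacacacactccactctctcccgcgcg
The Fos window holds 2 cores and the Nr4a3 window 4. Of 13358 windows of tested genes, 30% hold at least 1 core, 8.69% at least 2 and 0.494% at least 4. The full element TGACGTCA is in neither window and in 3.02% of the windows of tested genes. Windows were at hand for 12 of the 15 called genes, and of the other called genes only Ncl, with 2, holds the core. A match of letters is a description and not evidence that a factor binds there.

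The relatives of these genes had smaller values. Nr4a2 was at 7.15, 5.16 and 5.35 CPM at 3 d, against 3.83, 4.56 and 4.64 CPM in controls, separate but not called (log2 0.45, SE 0.16, edgeR adjusted p = 0.391). Nr4a1 overlapped, with 17.1, 15.3 and 15.4 CPM at 3 d and 10.8, 16.1 and 14.0 CPM in controls (log2 0.24, edgeR adjusted p = 0.642). Among 9 tested AP-1 subunits Fos was the only called, where 0.0382% of all genes were called higher. The median log2 was 0.05, with 0.02 without control 1. Fosb, the closest relative of Fos, was at 3.42, 2.89 and 4.08 CPM at 3 d and 2.65, 3.29 and 2.78 CPM in controls (log2 0.26, 95% interval −0.07 to 0.59). Junb had a log2 value of 0.15, and Jun, Jund, Fosl2, Jdp2 and Atf3 lay between −0.05 and 0.05. At 90 min all 9 were called higher than the same controls, where 17.5% of all genes were, with log2 4.20 for Fosb and 3.60 for Atf3, both above the early value of Fos. Whether Fos differs from its relatives at 3 d was not tested.

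**Figure D3:**
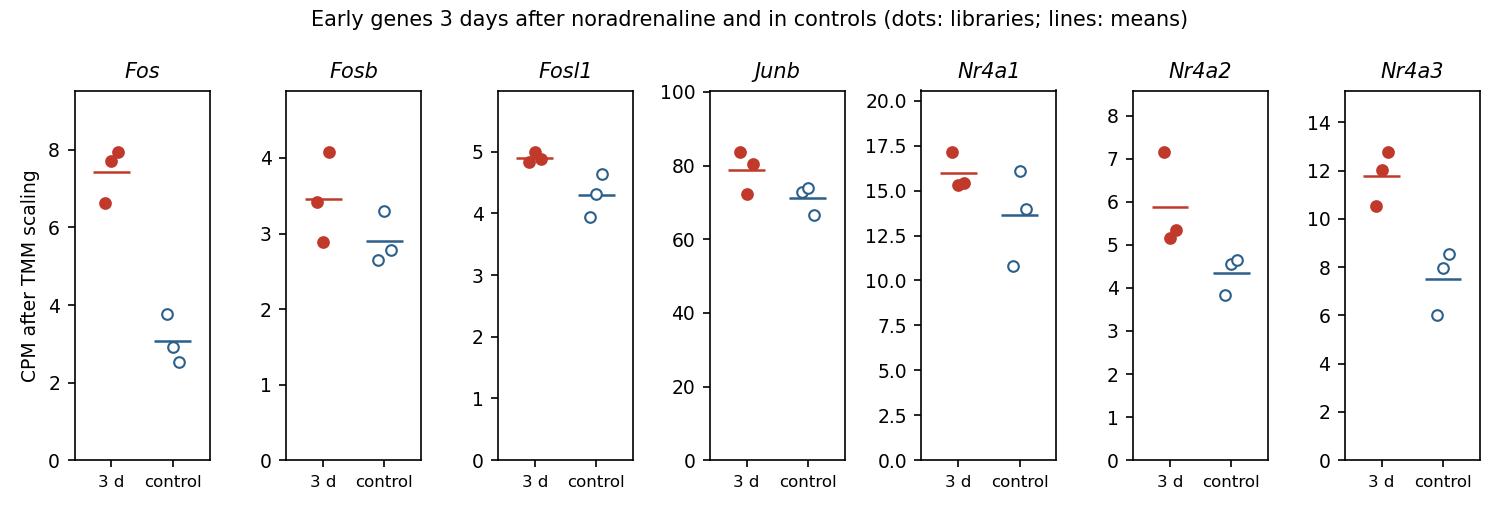
CPM after TMM scaling for 4 AP-1 subunit genes and the 3 Nr4a genes in the 3 libraries collected at 3 d (filled, left) and the 3 controls (open, right), each axis starting at 0, with lines at the means. Fos and Nr4a3 are clearly separate, Nr4a2 and Fosl1 narrowly so, and Fosb, Junb and Nr4a1 overlap.

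Of 23 tested cyclic AMP and CREB targets, 1 was called higher (Nr4a3) and 0 lower, where 0.0382% of all genes were called higher. 6 had an unadjusted p under 0.05 in the higher direction (background 4.73%) and 0 in the lower. 17 had log2 values above 0 and 6 below. The list also holds Nr4a1, Nr4a2, Nr4a3 and Fosb, described above, and Nr4a2 and Nr4a3 are among the 6 with such a p. The median was 0.12, and 0.08 without control 1, against 0.00 over all genes. The phosphodiesterase genes Pde4b and Pde10a, which code for enzymes that break down cyclic nucleotides, had log2 values of 0.26 and 0.20. The clock gene Per2 and the CREB family gene Crem were both at 0.21. Areg was the lowest, at −0.33, and Sgk1 lay at −0.09. Averaged over the list, the 3 d libraries stood 0.10 to 0.14 log2 units above the control mean, and the controls ranged from −0.08 to 0.06.

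In the list of other immediate early genes 0 of 19 were called and the median was 0.04, or 0.08 without control 2. Ier2, a small early response gene, was nearest to the threshold, at 21.3, 20.3 and 24.0 CPM at 3 d and 15.6, 17.5 and 16.6 CPM in controls (log2 0.40, SE 0.08, edgeR adjusted p = 0.0737). Zfp36, whose product destabilizes mRNAs, and Ccn1, a matricellular gene, were also separate with higher values at 3 d (log2 0.42 and 0.25). Klf10 lay the other way at −0.25. Neither Ier2 nor Zfp36 was called at 90 min (log2 0.18 and −0.13), while Ccn1 and Klf10 were both called lower (−0.51 and −0.99). Over the list, 7 of 19 were called higher at 90 min and 4 lower, where 17.5% and 15.5% of all genes were.

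The lower genes included 3 for secreted matrix proteins. Ogn codes for osteoglycin, a small leucine-rich proteoglycan that binds collagen fibrils. It was at 58.4, 72.7 and 63.7 CPM at 3 d, against 90.1, 91.5 and 83.4 CPM in controls. The 3 d libraries spread more widely than the controls but did not reach them (log2 −0.45, SE 0.06, 95% interval −0.58 to −0.31, edgeR adjusted p = 0.0162). Fmod, for the related fibromodulin, was tighter, with 24.1, 25.5 and 24.2 CPM at 3 d and 32.6, 32.7 and 33.0 CPM in controls. Its level fell by 0.41 on the log2 scale (SE 0.06, edgeR adjusted p = 0.0187). Mgp, for the calcification inhibitor matrix Gla protein, stood at 25.6, 25.7 and 26.5 CPM at 3 d and at 35.4, 34.1 and 32.6 CPM in controls (log2 −0.39, SE 0.07, edgeR adjusted p = 0.0281). None of these 3 was called at 90 min, where the log2 values were −0.08, 0.11 and −0.08.

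The other small proteoglycans had values nearer to 0. 11 of the 15 members were tested, 2 were called lower (Ogn and Fmod, where 0.0764% of all genes were called lower) and 0 higher, with a median of −0.13. Prelp was separate, at 847, 893 and 870 CPM at 3 d and 977, 930 and 946 CPM in controls (log2 −0.13, SE 0.04, edgeR adjusted p = 0.275). Bgn, for biglycan and the most abundant of them in CPM, had a log2 value of −0.08. Dcn for decorin, Podn and Lum for lumican lay at 0.06, 0.05 and −0.02, and Omd, which codes for osteomodulin, at −0.13. Averaged over the list, 3 d libraries 1 and 3 stood at −0.21 and −0.11 relative to the control mean, while library 2, at −0.01, lay among the controls. Without 3 d library 1 the median was −0.06.

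Fibrillar collagens pointed the same way without a call. Col1a1, for the main chain of type I collagen, was at 1227, 1070.0 and 1051 CPM at 3 d and 1366, 1350.1 and 1539 CPM in controls (log2 −0.35, SE 0.08, edgeR adjusted p = 0.118). Its partner Col1a2 had 782, 719 and 724 CPM at 3 d and 861, 837 and 933 CPM in controls, and Col5a2 had a log2 value of −0.20. Of the 21 genes of the list 0 were called and 16 were below 0 (background 49.6% of all genes), with a median of −0.09. Of all genes at the median level of this list, a log2 CPM of 6 to 8, 42.9% were above 0, as given earlier. Col1a1, Col1a2 and Col5a2 had a mean log2 CPM of 10.3, 9.69 and 8.64. Of all genes at 8 or more, 26.7% were above 0. The list median was −0.05 without control 3 or without 3 d library 3, and its library means overlapped between the groups. 6 had an unadjusted p under 0.05 in the lower direction (background 4.6%) and 1 in the higher, Bmp1, for the protease that trims procollagens (log2 0.17). At a level of 8 or more, 106 of 731 genes had one in the lower direction. Among 25 other matrix genes Mgp was the 1 called lower (background 0.0764%), 18 were below 0 and the median was −0.07. That median was −0.03 without control 3 and −0.05 without 3 d library 3. Sparc, for a collagen-binding matrix protein, was at 1323, 1344 and 1359 CPM at 3 d and 1513, 1493 and 1564 CPM in controls (log2 −0.18, SE 0.04, edgeR adjusted p = 0.0744). Vcan and Postn, for versican and periostin, lay on the other side, at 0.15 and 0.11.

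Acta2, for smooth muscle actin, was at 139, 144 and 155 CPM at 3 d, against 174, 181 and 183 CPM in controls. It fell by 0.30 on the log2 scale (SE 0.05, edgeR adjusted p = 0.0373). Tagln, for the actin-binding transgelin, was at 143, 132 and 152 CPM at 3 d and 166, 164 and 166 CPM in controls, separate but not called (log2 −0.22, edgeR adjusted p = 0.153). Of 21 tested contractile and SRF target genes 1 was called lower, where 0.0764% of all genes were, and 0 higher. 17 were below 0 and the median was −0.07. 6 had an unadjusted p under 0.05 in the lower direction (background 4.6%), among them Cald1, Myh9 and Flna (log2 −0.14, −0.13 and −0.11). The median level of the list was a log2 CPM of 7.38. Of all genes at 6 to 8, 42.9% were above 0 and 180 of 3318 had such a p in the lower direction. At 8 or more, where Cald1, Myh9 and Flna lie, 26.7% were above 0 and 106 of 731 had one. Ccn1, also an SRF target, was at 0.25. Ogn, Col1a1 and Col1a2 are also fibroblast and meningeal markers, and Acta2 and Tagln are also pericyte and smooth muscle markers. The summed levels of both marker lists, given above, were lower at 3 d. Both sums include these same genes, so they are no separate readout of the other markers. Col1a1 and Col1a2 averaged 1116 and 742 CPM at 3 d and 1419 and 877 CPM in controls. The whole fibroblast sum averaged 2061 and 2522 CPM. Acta2 and Tagln averaged 146 and 142 CPM at 3 d and 179 and 165 CPM in controls. The whole pericyte sum averaged 712 and 776 CPM. Of the 10 tested fibroblast markers 8 had log2 values below 0, with a median of −0.23 over the list. 4 of the 10 had an unadjusted p under 0.05 in the lower direction (background 4.6%) and 0 in the higher. Dcn and Pdgfra, at 0.06 and 0.04, were the members above 0. Of the 7 tested pericyte and smooth muscle markers 5 were below 0, with a median of −0.22 over the list. 2 of the 7 had an unadjusted p under 0.05 in the lower direction (background 4.6%) and 0 in the higher. Notch3 and Cnn1, at 0.02 and 0.04, were the members above 0. The part of cell composition in the matrix and contractile values was not tested.

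Pkp1 codes for plakophilin 1, a desmosome protein. It was at 26.2, 19.3 and 23.1 CPM at 3 d and 34.8, 33.1 and 38.1 CPM in controls (log2 −0.63, SE 0.10, edgeR adjusted p = 0.0207), the lowest log2 value of the called genes. Cdsn, for the corneodesmosome protein corneodesmosin, was lower still but scarce, with 2.05, 1.30 and 1.27 CPM at 3 d and 3.56, 3.99 and 3.59 CPM in controls. Its groups were separate and it missed the threshold (log2 −1.26, SE 0.25, edgeR adjusted p = 0.0515).

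Lmnb1, for lamin B1 of the nuclear lamina, was at 30.3, 27.9 and 28.2 CPM at 3 d, against 35.9, 36.6 and 35.7 CPM in controls (log2 −0.32, SE 0.05, edgeR adjusted p = 0.0207). At 90 min, against the same controls, it was 1.95 higher on the log2 scale, so its values at the 2 times lie on opposite sides of the controls. It was the 1 called of 15 genes of the lamina and inner nuclear membrane, where 0.0764% of all genes were called lower. The list median was 0.00, or −0.04 without control 1. Lmnb2, the closest relative, had a log2 value of 0.00 and Lmna −0.09. Emd, for the inner membrane protein emerin, had a log2 value of 2.73 at 90 min and −0.05 at 3 d.

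Acidic histone chaperones carry histones to and from DNA, and several of them also act in the nucleolus. Anp32b was at 186, 188 and 204 CPM at 3 d, against 240, 228 and 245 CPM in controls (log2 −0.30, SE 0.05, edgeR adjusted p = 0.0207). Set had 299, 291 and 315 CPM at 3 d and 350, 342 and 356 CPM in controls (log2 −0.21, SE 0.04, edgeR adjusted p = 0.0456). Ncl, for nucleolin, the major nucleolar RNA-binding protein, had 671, 665 and 693 CPM at 3 d and 798, 765 and 811 CPM in controls (log2 −0.23, SE 0.04, edgeR adjusted p = 0.0281). These 3 were the called members of 16, with 0 higher, where 0.0764% of all genes were called lower. 9 had an unadjusted p under 0.05, all lower (background 4.6%), 15 were below 0 and the median was −0.12. At the median level of the list, a log2 CPM of 6 to 8, 42.9% of all genes were above 0. There 180 of 3318 had such a p in the lower direction. At 8 or more, where Ncl, Set, Ptma, Nap1l1 and Npm1 lie, 26.7% were above 0 and 106 of 731 had one. The 6 others with an unadjusted p under 0.05 were Ptma, Nap1l1, Npm1, Anp32a, Nasp and Ssrp1, with log2 values of −0.15 to −0.09. Set, Npm1, Ptma and the ribosomal protein genes have near-identical copies in the genome, so their estimated counts are uncertain.

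Most genes of translation and ribosome assembly had log2 values slightly below 0, and few were called. Eif2s2, for a subunit of the initiation factor that delivers the first tRNA, was at 191, 185 and 186 CPM at 3 d, against 214, 217 and 215 CPM in controls. Both groups were tight, and the level fell by 0.20 on the log2 scale (SE 0.04, edgeR adjusted p = 0.0456). It was the 1 called of 33 translation factors, where 0.0764% of all genes were called lower. Of the 33 factors 31 were below 0 (median −0.08). 12 had an unadjusted p under 0.05 in the lower direction and 0 in the higher. Of all genes with a mean log2 CPM of 8 or more, 106 of 731 had one in the lower direction. Eif3c was at 359, 342 and 356 CPM at 3 d and 398, 390 and 412 CPM in controls (log2 −0.18, edgeR adjusted p = 0.0907), and Eif2s3x, for another subunit of the same factor as Eif2s2, had a log2 value of −0.15.

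Ncl was also the 1 called of 38 ribosome biogenesis genes (background 0.0764%), of which 33 were below 0 (median −0.07). 12 had an unadjusted p under 0.05, all lower (background 4.6%). They included Mybbp1a, the RNA helicase gene Ddx21 and the pseudouridine synthase gene Dkc1 (log2 −0.15, −0.14 and −0.24). Of 49 cytosolic ribosomal protein genes 0 were called and 47 were below 0 (median −0.08). 13 had an unadjusted p under 0.05 in the lower direction and 1, Rpl5 (0.21), in the higher. At a mean log2 CPM of 8 or more, 106 of 731 genes had such a p in the lower direction. Together the 3 lists hold 120 tested genes, of which 111 were below 0. The median over all genes with a mean log2 CPM of 8 or more was −0.03, and the ribosomal protein and translation factor lists have median log2 CPM values of 8.92 and 8.34. At 90 min, 17 of the 38 biogenesis genes were called higher and 0 lower against the same controls, where 17.5% of all genes were called higher and 15.5% lower.

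Single libraries limited these shifts. Averaged over members, the translation factor list stood at −0.09, −0.11 and −0.05 in 3 d libraries 1, 2 and 3, relative to the control mean, with controls between −0.02 and 0.02. Ribosomal protein genes averaged −0.10, −0.13 and −0.03, and 3 d library 3 lay within the range of the controls (−0.03 to 0.03). The histone chaperone list was at −0.14, −0.15 and −0.09, below the lowest control at −0.04.

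The mitosis list had the lowest median of the 25 lists. Of 30 genes of mitosis and the G2 and M phases, 28 were below 0, but 0 were called (median −0.20). 15 had an unadjusted p under 0.05, all lower (background 4.6%). Cdc20, which activates the anaphase-promoting complex, was at 20.7, 15.4 and 16.5 CPM at 3 d and 22.7, 24.5 and 23.3 CPM in controls. The groups were separate (log2 −0.42, SE 0.10, edgeR adjusted p = 0.124). Birc5, for survivin of the chromosomal passenger complex, had 8.94, 7.37 and 8.74 CPM at 3 d and 11.99, 11.5 and 10.5 CPM in controls (log2 −0.44, SE 0.12, edgeR adjusted p = 0.181). The mitotic kinesin gene Kif11 overlapped at the edges, with 12.3, 10.2 and 9.90 CPM at 3 d and 15.2, 12.03 and 13.8 CPM in controls.

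Of 34 genes of DNA replication, 27 were below 0 and 0 were called (median −0.12). 7 had an unadjusted p under 0.05, all lower (background 4.6%). Mcm5, for a subunit of the replicative helicase, was at 14.2, 12.03 and 14.8 CPM at 3 d and 17.8, 17.8 and 17.6 CPM in controls (log2 −0.37, SE 0.08, edgeR adjusted p = 0.108). Clspn, for the checkpoint adaptor claspin, had a log2 value of −0.68 and Uhrf1, which guides maintenance methylation, one of −0.29. The 3 d libraries were uneven. Averaged over the mitosis list, 3 d library 1 stood at −0.07, library 2 at −0.35 and library 3 at −0.22, while the controls were at 0.00, −0.07 and 0.06. Library 1 was thus just below control 2. Without 3 d library 2 the median of the mitosis list was −0.15, and without 3 d library 1 it was −0.29. The median of the replication list was −0.07 without 3 d library 2. Cell cycle brakes and p53 targets, such as Cdkn1a and Mdm2, had a median of −0.01 over 20 genes, with 0 called.

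**Figure D4:**
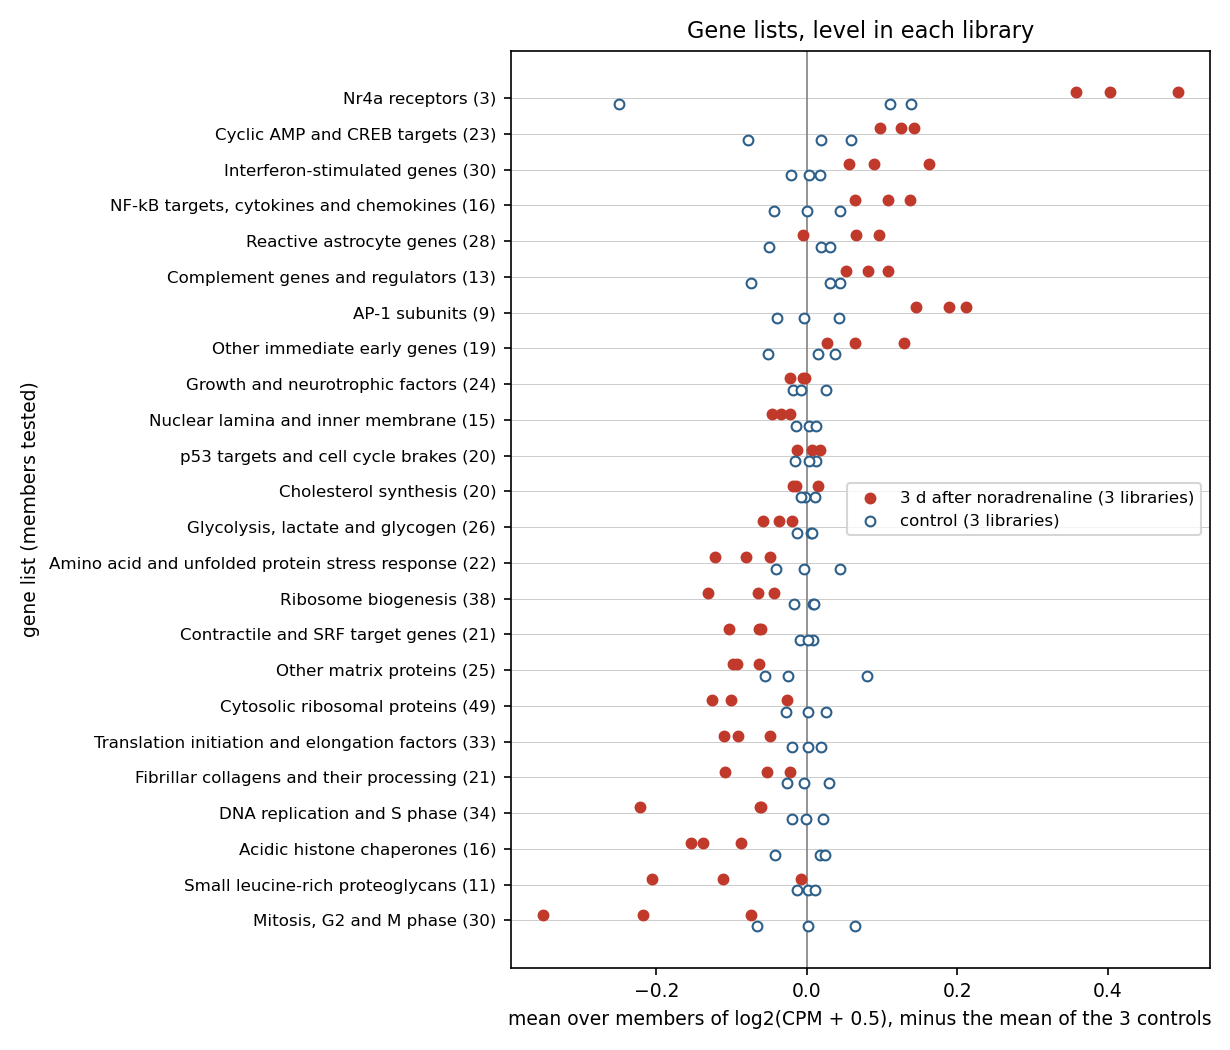
Mean over list members of log2(CPM + 0.5) in each library, relative to the mean of the 3 controls (3 d libraries filled, controls open), for 24 gene lists ordered by their median fold change. The mitosis list spreads from −0.35 to −0.07 across the 3 d libraries; most lists lie within 0.15 of the controls.

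C3, the central component of complement and a gene often used to mark reactive astrocytes, was at 274, 265 and 273 CPM at 3 d. Controls had 219, 232 and 236 CPM. The 3 d libraries were close to each other and above every control (1.18-fold, log2 0.24, SE 0.04, edgeR adjusted p = 0.0207). C1s1, for the protease that starts the classical pathway, was the next gene in order of p after the called ones. It was at 1421, 1429 and 1409 CPM at 3 d and 1267, 1214 and 1267 CPM in controls (log2 0.18, SE 0.04, edgeR adjusted p = 0.0515). Of 27 complement genes 13 were tested and 1 was called higher, where 0.0382% of all genes were. The median was 0.07, with 8 above 0 and 5 below, the lowest at −0.22. Clu and C1ra had log2 values of 0.09 and 0.08, and C4b and Masp1 lay at 0.04 and −0.02. C1qa, C1qb and C1qc, which microglia make, had 0 counts.

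Most interferon response genes had log2 values slightly above 0. Of 30 tested, 28 were above 0 and 0 were called (median 0.11). 5 had an unadjusted p under 0.05, all higher (background 4.73%). Ifit1, an antiviral RNA-binding effector, was at 40.1, 47.3 and 39.4 CPM at 3 d and 34.7, 35.5 and 33.3 CPM in controls (log2 0.29, SE 0.07, edgeR adjusted p = 0.130). Usp18, which restrains interferon signalling, had 10.7, 13.4 and 10.5 CPM at 3 d and 9.61, 8.48 and 9.83 CPM in controls. In both genes 3 d library 2 was the highest. Averaged over the list the 3 d libraries were at 0.09, 0.16 and 0.06, and the controls between −0.02 and 0.02. Without 3 d library 2 the list median was 0.07.

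Among NF-kB targets, cytokines and chemokines 0 of 16 were called, with a median of 0.10. An unadjusted p under 0.05 was held by 5 of the 16, all higher (background 4.73%). Averaged over the list the 3 d libraries were at 0.06 to 0.14 and the controls at −0.04 to 0.04. Cxcl1, Ccl2 and Ccl7, for chemokines that draw neutrophils and monocytes, had log2 values of 0.52, 0.39 and 0.49 at levels below 10 CPM in every library. Vcam1, an adhesion molecule gene at 941 CPM on average at 3 d and 883 CPM in controls, had one of 0.09. Of 28 tested genes of the reactive astrocyte list, which does not hold C3, 0 were called (median 0.09). Osmr, for the oncostatin M receptor, was at 101, 113 and 103 CPM at 3 d and 85.4, 89.5 and 91.3 CPM in controls (log2 0.25, SE 0.05, edgeR adjusted p = 0.0515). Fkbp5, a glucocorticoid target, lay on the other side (log2 −0.25, edgeR adjusted p = 0.108).

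A pair of scarce genes completed the higher calls. Xkrx, for a membrane protein of the XK family, was at 3.58, 3.80 and 3.65 CPM at 3 d and 1.24, 1.58 and 1.48 CPM in controls. Both groups were tight (2.56-fold, interval 1.82 to 3.62, log2 1.36, SE 0.24, edgeR adjusted p = 0.0281), and its log2 value at 90 min was −0.73 (edgeR adjusted p = 0.0766). Efcab15 had 23, 8 and 45 counts at 3 d and 0 in each control, at least 23.3-fold higher when the controls are set to 3 counts over the group (edgeR adjusted p = 0.0207). Its 90 min libraries had 23, 30 and 22 counts. With only the 6 libraries of the comparison it did not pass the filter and was not tested, so its call rests on the 90 min libraries being in the fit. The spread within the 3 d group was wide, and a count of 0 in an estimated count table can be a failed assignment of reads.

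The threshold lay within a run of genes with nearly equal p. 28 genes had an adjusted p between 0.05 and 0.1, 16 higher and 12 lower. Just outside were, beside C1s1, Osmr and Cdsn, the neuronal enolase gene Eno2, Cnpy1, Lrrc47, the TGF-beta feedback gene Pmepa1 and the mitochondrial translation gene Guf1. All had an edgeR adjusted p of 0.0515, and their groups were separate. Eno2 was at 103, 107 and 99.4 CPM at 3 d and 86.1, 90.4 and 84.2 CPM in controls (log2 0.25). Cnpy1 had 308, 315 and 294 CPM at 3 d and 258, 268 and 225 CPM in controls (log2 0.29). Pmepa1, on the lower side, was at 183, 179 and 187 CPM at 3 d and 207, 205 and 218 CPM in controls (log2 −0.20). Next came Clk1, for a kinase of splicing factors, at 0.29 and Marcks, for a membrane-bound kinase substrate, at −0.19, each with an edgeR adjusted p of 0.0611.

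The alpha adrenoceptor genes Adra1d, Adra2a and Adra1b were not called at 3 d. Adra1d had 166, 119 and 135 counts at 3 d and 157, 121 and 149 in controls (log2 −0.16, SE 0.13, edgeR adjusted p = 0.746). Adra2a was scarce, with 9, 11 and 7 counts at 3 d and 2, 0 and 6 in controls (log2 1.58, SE 0.66, 95% interval 0.18 to 2.98, edgeR adjusted p = 0.471). Adra1b had 3, 2 and 1 counts at 3 d, against 0, 1 and 2 in controls, after 28, 21 and 30 at 90 min. Its 95% interval at 3 d reached from −1.32 to 2.90 on the log2 scale, so smaller changes were not detectable at this depth.

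Several lists stayed close to the middle of all genes. Cholesterol synthesis had a median of −0.02 over 20 genes, glycolysis, lactate and glycogen −0.03 over 26, and growth and neurotrophic factors 0.01 over 24, with 0 called in each. Hk2, for the inducible hexokinase, was at 30.03, 29.2 and 30.2 CPM at 3 d and 27.4, 27.5 and 27.5 CPM in controls, narrowly separate (log2 0.12, edgeR adjusted p = 0.542), where its 90 min log2 value was 2.72. Igfbp2, which codes for a binder of insulin-like growth factors, was at 41.0, 36.2 and 40.1 CPM at 3 d and 42.8, 43.0 and 46.5 CPM in controls (log2 −0.17, SE 0.08, edgeR adjusted p = 0.530). Stress response genes for amino acid supply and protein folding had a median of −0.05 over 22 (−0.07 without control 2). 7 had an unadjusted p under 0.05, all lower (background 4.6%), such as Atf5, Slc7a5 and Shmt2 (log2 −0.20, −0.22 and −0.17).

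How far the calls rest on single libraries was read from fits that left out 1 of the 6 libraries. Fos remained called in 5 of these 6 fits and Ogn in 4. Fos lost its call without control 2 (edgeR adjusted p = 0.0514) and Ogn without controls 1 and 2 (0.0751 and 0.0514). Nr4a3 and Efcab15 remained in 2, while Fmod, Lmnb1, Pkp1, Anp32b and Acta2 remained in 1. C3, Xkrx, Mgp, Ncl, Set and Eif2s2 were not called in any of the 6. Of the 15 called genes, 6, 4 and 4 remained without 3 d library 1, 2 and 3, and 1, 0 and 3 without control 1, 2 and 3. Without control 2 no gene at all was called by edgeR, although 1301 had an unadjusted p under 0.05. The log2 values moved little: Fos stayed between 1.14 and 1.44, Nr4a3 between 0.51 and 0.76, Ogn between −0.53 and −0.38, C3 between 0.21 and 0.27 and Ncl between −0.25 and −0.21. Each such fit holds 1 library fewer.

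**Figure D5:**
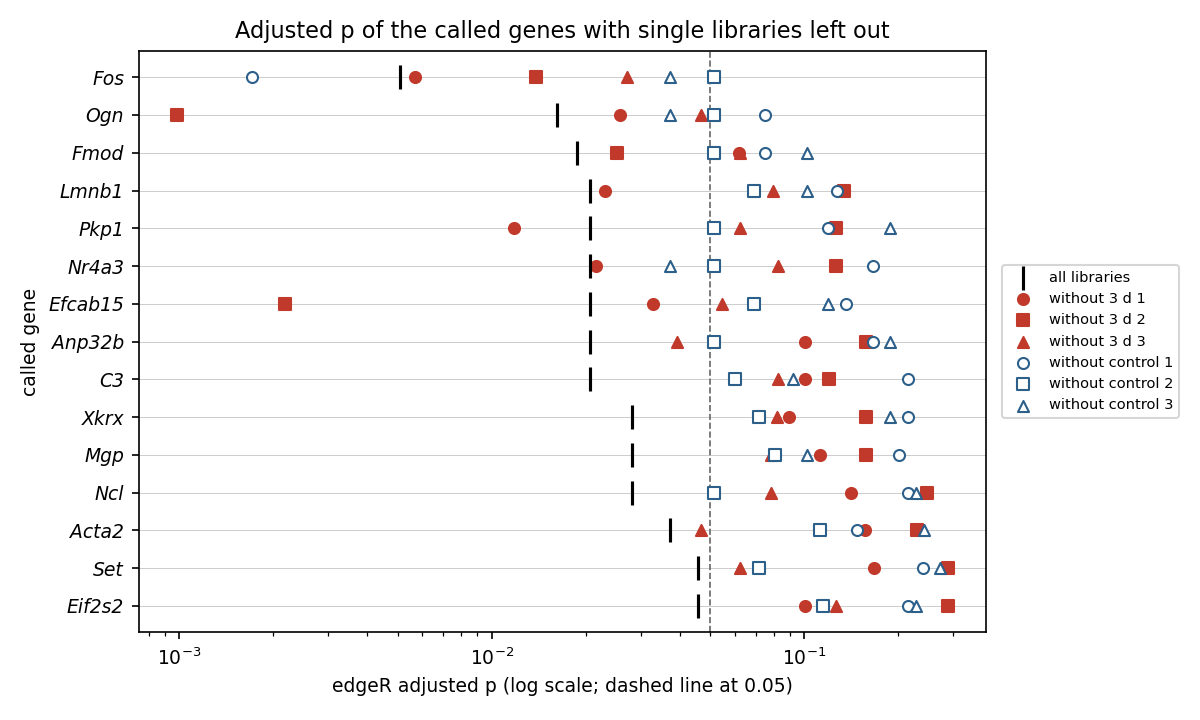
EdgeR adjusted p (log axis, dashed line at 0.05) of the 15 called genes with all libraries (bar), without each 3 d library (filled) and without each control (open). Fos stays left of the line in 5 of 6 fits and just misses it without control 2; C3, Xkrx, Mgp, Ncl, Set and Eif2s2 are left of it with all libraries only.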

How the data were processed

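RNA was poly(A)-selected from cultured cortical astrocytes, 3 libraries per group. The authors deposited estimated counts per gene. The submitters' processing notes name Salmon 1.8.0, fastp 0.23.4 and build mm39, and leave out the annotation and how transcripts were summed to genes. All values were whole numbers, so rounding changed none. 1 row without a symbol held at most 0.000668% of a library and was kept under its identifier. Columns were matched to samples by the names in the sample descriptions.

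The fit used edgeR 4.0.16 in R 4.3.3: filterByExpr (minimum count 10, minimum total 15), TMM scaling, 1 fit over all 9 libraries with a coefficient per group, and a two-sided quasi-likelihood test with Benjamini-Hochberg adjustment over 13090 genes. SE was the log2 fold change divided by the square root of F. Levels are CPM computed from the deposited counts after TMM scaling, not corrected for gene length. The fit was tested on simulated counts. 3 counts, the number a count of 0 allows, correspond to 0.162 to 0.193 CPM in these 6 libraries, for counting error only.

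The members, the 25 gene lists and the 9 marker lists were chosen with earlier results of these data known. Named genes were those called, the 3 smallest p of each list, all members of 6 short lists, the next 10 genes by p, Igfbp2 and Gfap. Others were chosen after their values were seen. Lists were described by counts and medians. Some results, such as the summed level of the microglial list, are not reported here. Promoters came from RefSeq tables (GRCm38.p6). Alternatives were RLE size factors, no and a stricter filter (minimum count 50), DESeq2 1.42.0, robust estimation, a 6-library fit, a replicate block and leaving out each library. Between replicates, chi-square over its degrees of freedom ranged from 2.40 to 3.98 within the 2 groups, so no pair matched within sampling noise. Within the 90 min group, which enters the same fit, it ranged from 2.86 to 7.13.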

Additional observations from a re-analysis of the deposited data

How the results depend on the processing

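The count of 15 called genes (5 higher, 10 lower) depended on the fit. It was 15 with RLE size factors (5 and 10), 14 with the stricter filter (5 and 9), and 32 with robust estimation (15 and 17). A fit of only the 6 libraries called 76 (39 and 37), DESeq2 76 (30 and 46) and a fit with no filter 205 (109 and 96). The same 15 genes were among the calls with RLE, robust estimation and no filter. 13 were shared with the stricter filter, 14 with 6 libraries, where Efcab15 was not tested, and 12 with DESeq2, which gave Fos, Xkrx and Efcab15 no adjusted p. Leaving out single libraries of any group gave 0 calls (without control 2) to 83 (without 90 min library 3), 0 to 45 of them higher and 0 to 38 lower, and 798 to 1527 genes with an unadjusted p under 0.05. Other settings gave 853 to 1509 such genes. The cause of these differences was not tested. Same-numbered libraries did not deviate together (correlations −0.09, −0.11 and −0.08). Such correlations over 3 libraries per group cannot tell whether the numbers pair samples. With the replicate number as a block 3 genes were called (Fos, Pkp1 and Ogn, 1 higher and 2 lower), and 1042 had an unadjusted p under 0.05. No log2 value of the called genes, or of the next 10, changed sign under the settings that gave one. Among lists reported here, medians turned sign for p53 targets (−0.02 to 0.00) and growth factors (−0.01 to 0.04).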
